A study of Mus musculus with 14 samples.

Results

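The genes described are the type 1 vomeronasal receptors (Vmn1r), chosen as the protein-coding genes whose symbol is Vmn1r followed by a number. There were 191 of them among the 21312 protein-coding genes with a variant of any kind in at least 1 of 12 mouse mammary tumours. What was counted in each gene was the number of DNA variants found by whole-exome sequencing, so the values say nothing about how strongly a receptor was expressed. Of the 191 genes, 16 passed the filter for testing (a summed count of at least 3) in the comparison of stiff and soft gels, 18 in that of KO and WT hosts, and 26 over all 12 tumours.

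All tumours grew from p53null mammary fragments of Balb/c mice in a study of the link from the mechanics of the tissue, through oxidative stress, to damaged DNA. The protocol gives a donor age of 8 to 10 weeks for the gel experiment and describes the host experiment by reference to it. In the gel experiment, fragments were implanted into cleared fat pads of wild-type recipients aged 3 to 4 weeks that had received a hydrogel of collagen 1 with 20% basement membrane extract, left uncrosslinked (soft; tumours A1, A2 and A3) or crosslinked with 500 mM L-ribose (stiff; A7, A8 and A9). In the host experiment, fragments were placed in the fat pads of LysM-Cre mice that were wild-type (WT; B1, B2 and B3) or knockout (KO; B4, B5 and B6) for GPX4, a peroxidase that detoxifies lipid peroxides. The LysM promoter drives Cre in myeloid cells. Tumours were taken at a diameter of up to 2 cm, and each group held 3. The labels give neither the p53 allele nor which donor each fragment came from, and the age of the LysM-Cre hosts is not given in the sources used here.

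Vmn1r genes encode G-protein-coupled receptors of the sensory neurons in the apical layer of the vomeronasal organ, where they detect small pheromone molecules such as volatile urine compounds and sulphated steroids. A receptor that binds its ligand activates the G protein subunit Gnai2, phospholipase C and the cation channel Trpc2. The genes have a coding region without introns, lie in dense tandem clusters, and are known to differ between mouse strains in sequence and in number, with many close copies and pseudogenes.

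A count here is the number of protein-altering variants in a gene, that is of HIGH impact (a frameshift or a gained stop, for example) or MODERATE impact (mostly a missense change), relative to the reference genome. The deposited tables hold no read depth, position or allele fraction, so a count can hold inherited differences from the reference, tumour mutations and false calls, which cannot be told apart. In all, the tumours held between 8317 and 16544 protein-altering variants in protein-coding genes, and replicates of a group differed in the count of 17.2% to 25.3% of the genes. A9 and B5 had the fewest such variants in their experiments, 9000 and 8317, and stood apart in the Vmn1r genes as given below. Each sample is only labelled as a separate tumour, so the tests measure the spread between these tumours.

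The sequences of some of the genes named below are shown, some of them beside that of a similar gene. The windows printed first run from 250 bases before to 50 bases after the start of the RefSeq gene model, in the GRCm38.p6 build and 5′ to 3′ on the gene's strand. The authors' calls were made on GRCm39, so these windows identify the genes and give no variant position. Vmn1r173 and Vmn1r174 both carried variants in all 12 tumours. Capitals mark the 3 bases of 300 at which their windows differ, counted from 1 at the 5′ end as T100A, T144C and T162C (Vmn1r173 first).
Vmn1r173 (chr7:23702092-23702391, + strand): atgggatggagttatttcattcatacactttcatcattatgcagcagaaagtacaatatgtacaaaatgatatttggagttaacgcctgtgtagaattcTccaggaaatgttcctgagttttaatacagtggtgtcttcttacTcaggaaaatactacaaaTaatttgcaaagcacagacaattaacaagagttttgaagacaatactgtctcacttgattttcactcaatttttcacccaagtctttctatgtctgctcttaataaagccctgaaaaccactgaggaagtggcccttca
Vmn1r174 (chr7:23753661-23753960, + strand): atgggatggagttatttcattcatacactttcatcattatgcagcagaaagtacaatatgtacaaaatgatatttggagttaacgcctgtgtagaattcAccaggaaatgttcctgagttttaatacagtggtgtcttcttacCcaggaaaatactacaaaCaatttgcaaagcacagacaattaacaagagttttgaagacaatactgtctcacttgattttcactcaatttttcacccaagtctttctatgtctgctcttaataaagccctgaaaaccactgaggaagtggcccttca

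All 3 differences lay before the start of the gene model, and the 50 bases after it were identical. The next pair, Vmn1r113 and Vmn1r245, shared their pattern over the tumours, and their first 50 coding bases differed at 1 base (T8C, Vmn1r113 first, in capitals).
Vmn1r113 (chr7:20787285-20787334, + strand): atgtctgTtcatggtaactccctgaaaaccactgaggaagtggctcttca
Vmn1r245 (chr7:20545708-20545757, - strand): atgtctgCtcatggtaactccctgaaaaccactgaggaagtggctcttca

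Vmn1r197 carried frameshifts in every tumour, and its first 50 coding bases were identical to those of Vmn1r211, which had no protein-altering variant, while the 300-base windows of this pair were 84.3% identical. Vmn1r259 was the single member whose counts did not overlap between a pair of groups, and its first 50 coding bases were identical to those of Vmn1r127, a gene listed in none of the tumours.
Vmn1r197 (chr13:22327911-22327960, + strand): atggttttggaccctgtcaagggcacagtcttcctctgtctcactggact
Vmn1r259 (chr7:23019874-23019923, - strand): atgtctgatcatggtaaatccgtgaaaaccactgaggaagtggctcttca

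Most Vmn1r genes carried no protein-altering variant in any tumour. This held for 126 of 191 genes (66.0%), against 44.5% of all protein-coding genes. A further 54 genes (28.3%) were altered in 1 to 4 tumours, against 37.0% of all genes, and 34 of these in a single tumour. No Vmn1r gene was altered in 5 to 8 tumours, where 7.87% of all genes lay. The remaining 11 (5.76%) were altered in 9 or more tumours, against 10.6% of all genes, and 5 (2.62%) in all 12, against 7.47%. The genes altered in 9 or more tumours are called recurrent below, and those altered in 1 to 4 sporadic. Gene lengths differ between families and were not taken into account in these shares.

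**Figure D1:**
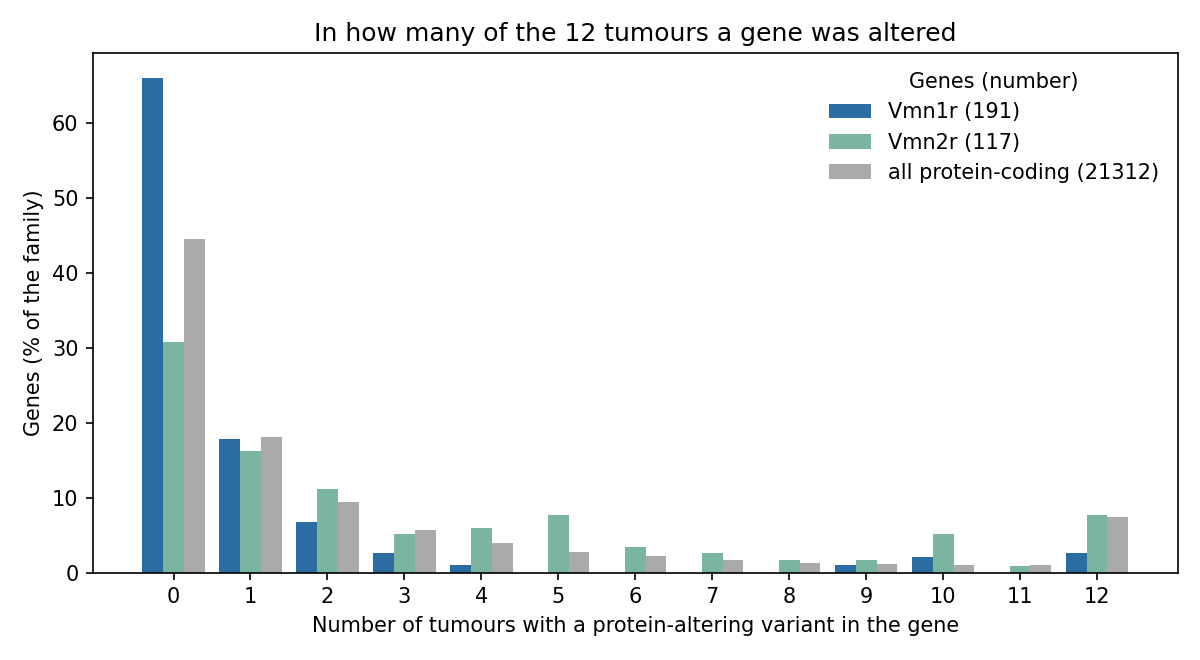
Share of genes (y axis, % of the family) by the number of tumours, of 12, in which the gene had a protein-altering variant (x axis), for the 191 Vmn1r genes, the 117 Vmn2r genes and all 21312 protein-coding genes. Vmn1r genes have the tallest bar at 0 (66.0%) and no bar from 5 to 8 tumours.

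The related type 2 vomeronasal receptors (Vmn2r), which have a long extracellular domain and several exons, did not show this gap. Of 117 Vmn2r genes 36 (30.8%) were never altered, 18 (15.4%) were altered in 5 to 8 tumours and 18 (15.4%) in 9 or more. Among olfactory receptors (Olfr), which like Vmn1r genes have a coding region without introns, 647 of 1091 (59.3%) were never altered and 29 (2.66%) lay in 5 to 8 tumours. The mean count per gene and tumour was 0.242 in Vmn1r, 0.359 in Olfr, 0.735 in Vmn2r and 0.542 over all protein-coding genes. The median over genes of the mean count was 0 for Vmn1r and 0.0833 for all genes.

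The 11 recurrent genes held 429 of the 555 protein-altering variants counted over the 12 tumours (77.3%). Vmn1r3 had the highest mean count, with 9 variants in A1, A2, A3, B1, B2, B3, B4 and B6, 10 in A7, 11 in A8 and 0 in A9 and B5. Vmn1r2, its neighbour on chromosome 4 and the only other Vmn1r gene there, had 5 in A1, A2, A3, A7, A8 and B6, 7 in B1, 6 in B2 and B4, 4 in B3 and 0 in A9 and B5. Every protein-altering variant of this pair was a missense change. Vmn1r3 held at most 2 synonymous variants in a tumour, against 9 to 11 missense variants in the 10 tumours where it was altered.

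Vmn1r174, of the V1rd subfamily, had 7 protein-altering variants in 10 tumours and 5 in A9 and B5. Its 7 variants were 6 missense changes and 1 stop gained, and A9 and B5 had 5 missense variants and no stop gained. It also had 8 synonymous variants in 9 tumours, 7 in B4, 6 in A9 and 5 in B5. Vmn1r173, whose window is 99% identical, had exactly 4 in each of the 12 tumours, 3 missense changes and 1 frameshift. No other member with more than 1 variant had the same count in every tumour. Whether reads of this pair were assigned to the right copy was not tested, and the coding region beyond its first 50 bases was not compared.

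Vmn1r197 on chromosome 13 had 4 protein-altering variants in A7, B1 and B2 and 3 in the other 9 tumours. Between 2 and 3 of these were frameshifts in each tumour, and 1 was a missense change. Vmn1r184 on chromosome 7 had 3 in A1, A9 and B1 and 2 in the other 9. In every tumour these included 1 frameshift and 1 splice acceptor variant, with 1 stop gained more in A1, A9 and B1 and no missense change. A splice acceptor site belongs to a transcript model with more than 1 exon. Vmn1r173, Vmn1r184 and Vmn1r197 were the 3 members with a frameshift or stop gained in all 12 tumours. Vmn1r24 on chromosome 6 had 1 missense variant in each of the 12 tumours.

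**Figure D2:**
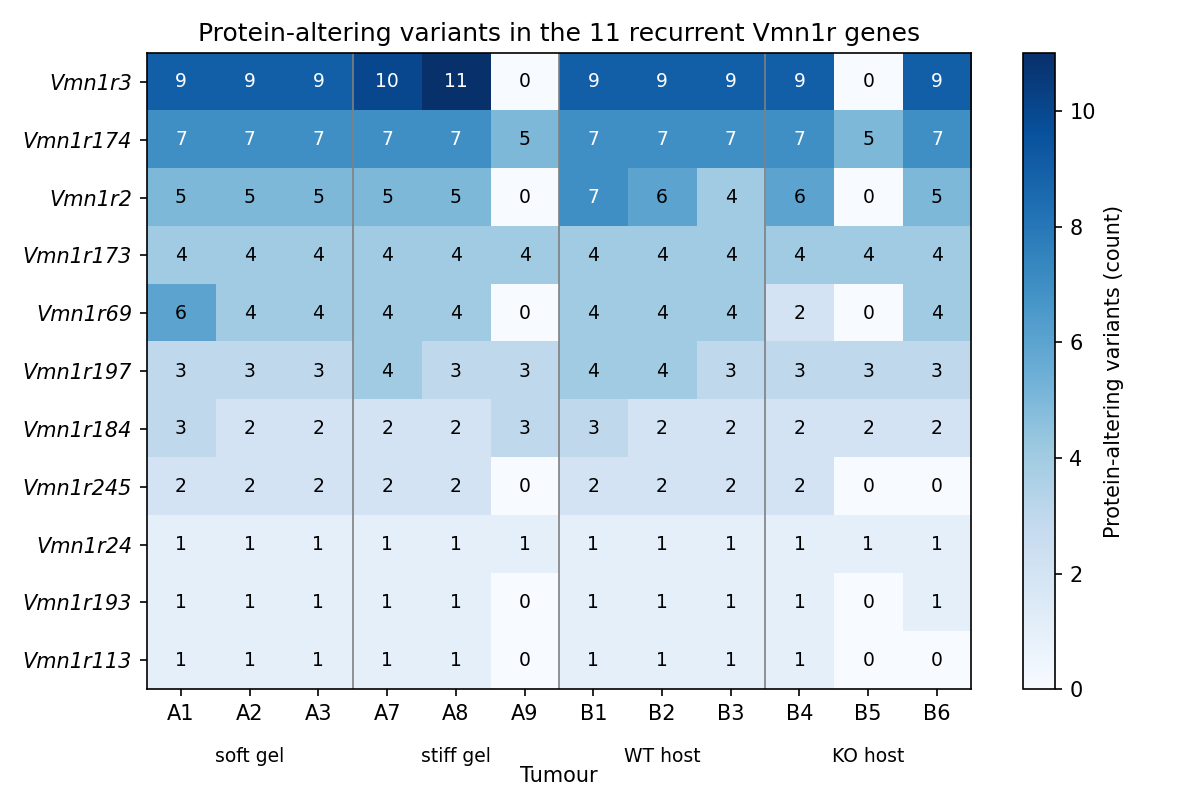
Number of protein-altering variants (cell value and colour) in each of the 11 Vmn1r genes altered in 9 or more tumours (rows, by mean count) in each tumour (columns, 3 per group). Columns A9 and B5 hold 0 in 6 rows, B6 holds 0 in 2 rows, and the other 9 columns hold no 0.

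A9 and B5 lacked the variants of several recurrent genes at once. Among the 9 Vmn1r genes with a protein-altering variant in each of the other 10 tumours, 4 (44.4%) were at 0 in both A9 and B5, namely Vmn1r2, Vmn1r3, Vmn1r69 and Vmn1r193. Over all protein-coding genes that share was 65 of 1765 (3.68%). It was 6 of 16 (37.5%) for Vmn2r and 1 of 61 (1.64%) for Olfr. A9 and B5 were picked with results of these data known, so these shares are a description and not a test. Vmn1r2 and Vmn1r3 are neighbours and may not be separate events. Over all genes A9 held 9000 protein-altering variants and the other gel tumours 9755 to 11672, and B5 held 8317 and the other host tumours 10857 to 16544.

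Vmn1r69, on chromosome 7, had 6 variants in A1, 2 in B4, 4 in the other 8 tumours where it was altered and 0 in A9 and B5. Its synonymous variants were also absent in A9 and B5 and numbered 1 to 3 in the other tumours. A frameshift was present in 9 tumours, all but A9, B4 and B5, and A1 alone had 2 stops gained. Vmn1r193, on chromosome 13, had 1 missense variant in 10 tumours and 0 in A9 and B5. Its MODIFIER variants, which are mostly upstream or downstream of the coding region, were not missing there, with 13 in A9 and 14 in B5 against 13 to 20 in the others.

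Vmn1r113 and Vmn1r245 were at 0 in B6 as well as in A9 and B5. Vmn1r245 had 2 missense variants and Vmn1r113 had 1 in each of the other 9 tumours. Both lie within a stretch of 18 Vmn1r genes on chromosome 7, from Vmn1r103 to Vmn1r123 in the RefSeq order, chosen after the values were seen. The MODIFIER variants of this stretch summed to 0 in B5, 5 in A9 and 18 in B6, and to between 31 and 69 in the other 9 tumours. The 3 tumours did not overlap with the rest. Within it Vmn1r123 had 0 in A9 and B5, 2 in B6 and 11 to 20 elsewhere, whereas Vmn1r116 had 0 in A9 and B5 but 10 in B6 and 9 to 12 elsewhere. In B6 the count of Vmn1r116 was thus within the range of the other 9 tumours and that of Vmn1r123 below it. Whether the variants of Vmn1r116 in B6 are those of the other tumours cannot be read from counts.

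**Figure D3:**
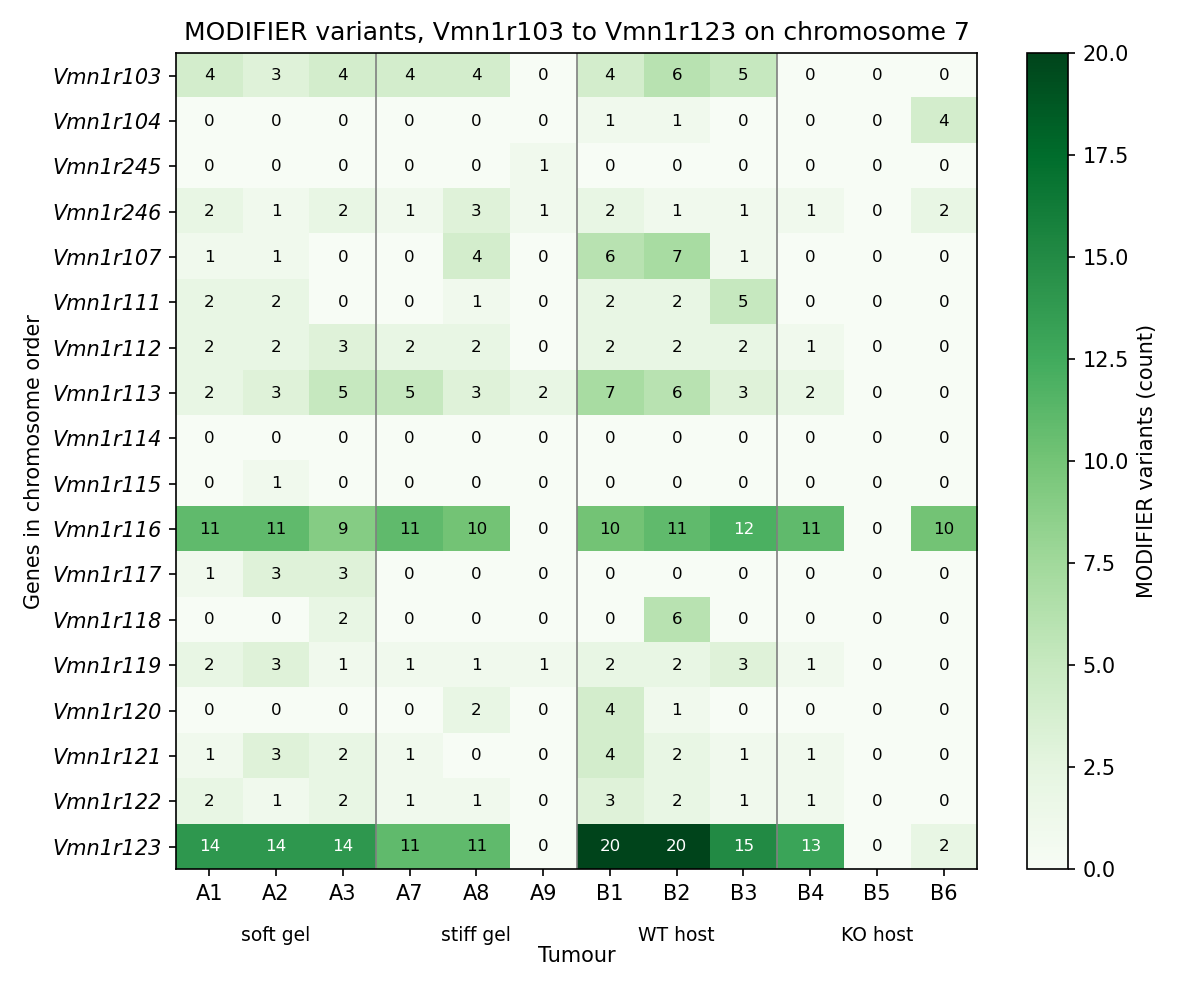
Number of MODIFIER variants (cell value and colour) of the 18 Vmn1r genes from Vmn1r103 to Vmn1r123 on chromosome 7 (rows, in the order of the RefSeq table) in each tumour (columns, 3 per group). The columns of A9 and B5 sum to 5 and 0, that of B6 to 18, of which 10 lie in Vmn1r116, and the others to 31 or more.

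Over the family, 57 Vmn1r genes had a MODIFIER variant in each of the 10 tumours other than A9 and B5, and 5 of these (8.77%) had none in both A9 and B5. Among all genes it was 107 of 12078 (0.886%). It was 6 of 83 (7.23%) for Vmn2r, near the Vmn1r share, and 5 of 415 (1.2%) for Olfr. These shares too are a description, since A9 and B5 were picked with results known. The 5 Vmn1r genes were Vmn1r71, Vmn1r116, Vmn1r123, Vmn1r160 and Vmn1r260, all on chromosome 7. Over all members the MODIFIER count was 513 in A9 and 464 in B5, the lowest of the 12, and 647 to 1208 in the others. Over all protein-coding genes these tumours also had the lowest MODIFIER counts, 335629 in A9 and 334678 in B5. Per 10000 MODIFIER variants of the tumour, the Vmn1r genes held 13.9 in B5, 14.4 in B6 and 15.3 in A9, and 16.5 to 20.9 in the others. Whether A9 and B5 differ from the rest in donor, in read depth or in calling was not tested, since the tables hold none of these.

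The 54 sporadic genes contributed 126 variants. They gave 83 pairs of a gene and a tumour, of which 57 held 1 variant and 26 held 2 or more. Vmn1r220, of the V1rh subfamily, had 5 protein-altering variants in B3 alone, 4 missense changes and 1 frameshift, together with 5 synonymous variants. Vmn1r259 had 3 in A3, 5 in B1, 4 in B2, 1 in B3 and 0 elsewhere. Vmn1r224 had 3 in A2, 2 in A3, 3 in A9 and 0 elsewhere. Of the sporadic genes, 13 (24.1%) were altered only in gel tumours, 30 (55.6%) only in host tumours and 11 in both. For all genes altered in 1 to 4 tumours the shares were 31.2% gel only and 36.1% host only. Of 45 such Vmn2r genes 8 were gel only and 21 host only, and of 345 such Olfr genes 93 and 162. The lean to host tumours was thus not particular to Vmn1r. B1, with the most protein-altering variants over all genes (16544), also had the most sporadic Vmn1r variants, 23, and 14 sporadic genes altered.

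Missense changes were the bulk of what was found. Over the 12 tumours the members held 439 missense and 243 synonymous variants, a ratio of 1.81. It was 1.28 over all protein-coding genes and 1.17 in Vmn2r. Of the 439 missense variants, 146 lay in the neighbours Vmn1r2 and Vmn1r3, which each had at most 2 synonymous variants in a tumour. A variant found in several tumours was counted in each. The ratio of the family thus leaned on this pair. It would be lower without the pair, by an amount that was not computed. The recurrent genes, which include this pair, had a ratio of 1.99 and the other members 1.37. That difference leaned on the pair too, so neither 1.81 nor 1.99 describes the members outside it. Recurrent genes were chosen by their protein-altering variants, so part of this difference follows from the choice. A9 had the lowest ratio, 1.08, and B4 the highest, 2.56. HIGH-impact variants made up 20.7% of the protein-altering variants in Vmn1r, 18.1% in both Vmn2r and Olfr, and 27.2% over all genes. They were found in 23 members, 5 recurrent and 18 sporadic, as frameshifts in 18 genes and stops gained in 6.

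By location, chromosome 7 held 89 of the members and 6 of the recurrent genes. The largest cluster there, from Vmn1r91 to Vmn1r183, had 53 members, of which 17 were altered, and its summed count ranged from 9 in A9 to 25 in B1. The cluster on chromosome 13, from Vmn1r188 to Vmn1r223, had 33 members with 12 altered. The clusters of chromosome 6 had 51 members with 11 altered, and Vmn1r24 was the only recurrent one among them. On chromosome 17 all 8 altered genes of 14 members were sporadic. The pair on chromosome 4 held 146 of the 555 variants of the whole family.

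The older V1R letter names, found for 119 members in the RefSeq table, place only part of these variants in subfamilies. Another 70 members had no letter, among them 26 altered and 6 recurrent genes. They held 306 of the 555 variants and include Vmn1r2, Vmn1r3 and Vmn1r173. In V1rd, 4 of 15 members were altered, led by Vmn1r174 (mean 6.67 over 12 tumours, SD 0.778) and Vmn1r172 (mean 0.417), and the other 11 were at 0. In V1re, 7 of 13 were altered, led by Vmn1r69 (mean 3.33) and Vmn1r225 (mean 0.5). In V1rh, 7 of 20 were altered, led by Vmn1r197 (mean 3.25) and Vmn1r220 (mean 0.417). In V1rc, the largest with 31 members, 7 were altered and 6 of these in 1 tumour each. In V1ri, 3 of 7 were altered, led by Vmn1r193 (mean 0.833). The lowest members of each of these subfamilies were at 0 in every tumour.

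The 3 receptors with known ligands that were examined carried no protein-altering variant. Vmn1r49 (V1rb2), which responds to the urine volatile 2-heptanone, and Vmn1r85 and Vmn1r89 (V1rj3 and V1rj2), which respond to sulphated steroids, were at 0 in every tumour. Vmn1r85 had 9 to 24 MODIFIER variants in each tumour, and Vmn1r89 had 1 to 3. Vmn1r49 had 1 in A9 and B2 and 0 in the rest. Of the RefSeq genes in the V1rj subfamily, 2 of 2 were listed and neither was altered.

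Genes whose window had a near-identical relative were often not listed. The RefSeq table holds 231 Vmn1r symbols, of which 40 had no row in any tumour, 33 of them in the cluster from Vmn1r91 to Vmn1r183. Among 205 genes with a sequence window, 65 had a relative whose window was at least 99% identical, and 27 of these (41.5%) were not listed. Of the 140 without such a relative 9 (6.43%) were not listed. The median identity to the nearest relative was 100.0% for the unlisted genes, 84.3% for the listed ones and 77.0% for the altered ones. An unlisted gene may have no called variant or no entry under that symbol in the authors' annotation, which cannot be told apart here. These are descriptions across genes that share clusters and are not independent.

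**Figure D4:**
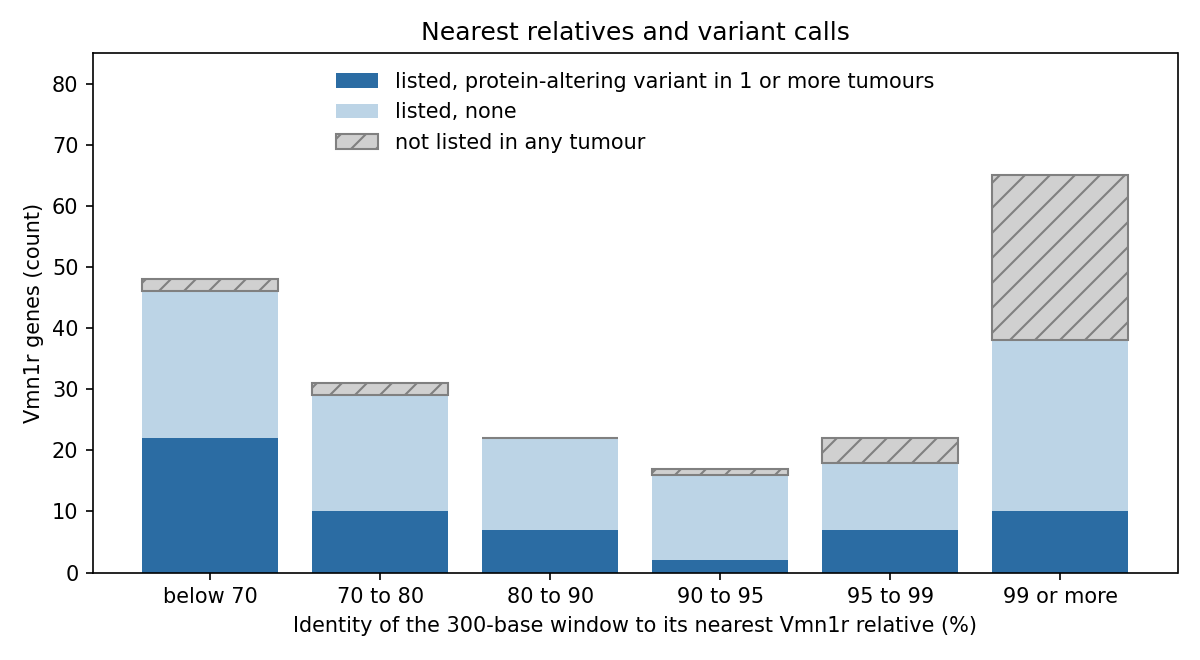
Number of Vmn1r genes (y axis) by the identity of their 300-base window to the nearest other Vmn1r window (x axis, %), split into genes with a protein-altering variant in at least 1 tumour, listed genes with none, and genes not listed in any tumour. In the bin of 99% or more, 27 of 65 genes are not listed and 10 are altered, against 22 altered of 48 in the bin below 70%.

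Among altered genes, Vmn1r174 and Vmn1r173 were each other's nearest relatives. The windows of Vmn1r245 and Vmn1r255 were 100.0% identical, and Vmn1r255 had 0 in every tumour while Vmn1r245 had 2 in 9 tumours. Vmn1r69 was at the other end, with a nearest window only 50.3% identical. Vmn1r24 and Vmn1r193 lay between, with 78.3% and 80%. Recurrent genes thus occurred both with and without a near-identical window elsewhere in the family. Most of a window lies before the start of the gene model, which was an ATG in 180 of the 205 windows. A low identity therefore does not show that a gene lacks a close coding copy. Vmn1r2, Vmn1r3 and Vmn1r184 were not in the table of windows.

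The summed Vmn1r count per tumour was close to constant in the soft gel. It was 49, 48 and 49 in the soft tumours A1, A2 and A3, and 45, 48 and 23 in the stiff tumours A7, A8 and A9. The stiff tumours thus overlapped with the soft ones, and A9 stood far below both. The mean was 48.7 ± 0.577 (SD, n = 3) in soft and 38.7 ± 13.7 (SD, n = 3) in stiff tumours, a difference of -10.0 that was smaller than the spread within the stiff group and fell to -2.17 without A9. No test was made on this sum, because the members were chosen with results of these data known.

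**Figure D5:**
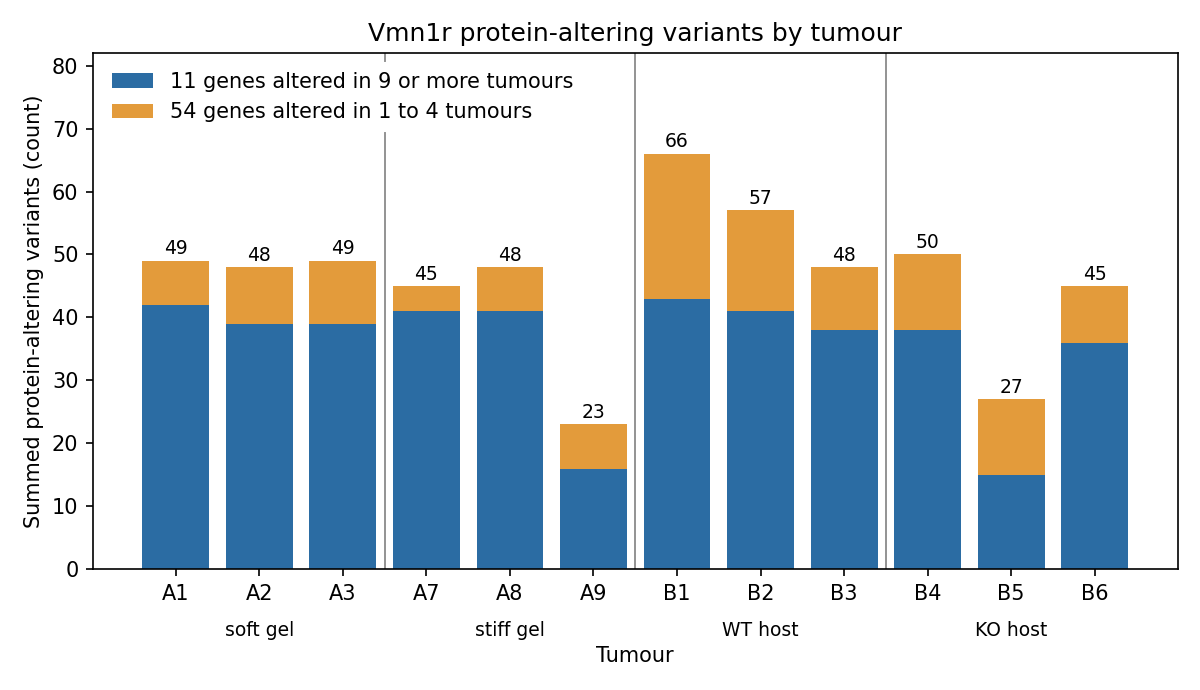
Summed protein-altering variants of the Vmn1r genes (y axis, count) in each tumour (x axis, 3 per group), split into the 11 recurrent and the 54 sporadic genes; the number above each bar is the total. A9 (23) and B5 (27) are the lowest bars, with recurrent parts of 16 and 15 against 36 to 43 in the other tumours.

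Stiff and soft gels were compared gene by gene, and no Vmn1r gene passed the test. By edgeR's quasi-likelihood test on all 4312 genes with a summed count of at least 3, 0.0% of the genes passed an adjusted p of 0.05, and 0 of the 16 Vmn1r genes tested did; 106 genes and 0 members had an unadjusted p below 0.05, and DESeq2 called 0 genes. For Vmn1r69 the log2 ratio of stiff to soft was -0.78 with an approximate SE of 0.744, for Vmn1r2 -0.57 with 0.746, and for Vmn1r3 -0.36 with 0.787 (edgeR adjusted p = 1 for each). None of the 16 members had counts that did not overlap between the groups, where the stiff tumours all lay above the soft ones in 1.18% of all genes and all below in 2.69%. Without A9, 1 of 15 members did not overlap, Vmn1r3 (10 and 11 in stiff, 9 in each soft tumour), against 7.29% of all genes in that setting, so this was near the background.

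Between the hosts, WT tumours had 66, 57 and 48 Vmn1r variants in B1, B2 and B3, and KO tumours 50, 27 and 45 in B4, B5 and B6. The groups overlapped through B3 and B4, and B5 had the lowest count. The mean was 57.0 ± 9.0 (SD, n = 3) in WT and 40.7 ± 12.1 (SD, n = 3) in KO hosts, a difference of -16.3 that became -9.5 without B5. The protein-altering variants of all genes differed in the same direction, 14392 ± 1997 in WT and 11333 ± 3279 in KO (SD, n = 3 each). Per 10000 protein-altering variants of the tumour, the Vmn1r genes held 39.5 ± 1.29 in WT and 36.3 ± 8.52 in KO (SD, n = 3 each), a difference of -3.25 that was well within the spread of the KO tumours. On this scale B6 (30.4) lay below B5 (32.5). In the recurrent genes the counts were 43, 41 and 38 in WT and 38, 15 and 36 in KO.

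No Vmn1r gene passed the test between the hosts by edgeR's quasi-likelihood test, which called 0.0% of 5309 genes and 0 of 18 members, with 199 genes and 1 member at an unadjusted p below 0.05; DESeq2 called 0 genes. That member was Vmn1r259 (edgeR adjusted p = 1), with 5, 4 and 1 variants in WT tumours and 0 in each KO tumour. It was also the only one of the 18 whose groups did not overlap. Over all genes tested, the KO tumours all lay below the WT ones in 4.26% and all above in 0.735%, so 1 of 18 members was near that background. Soft tumour A3 also had 3 variants in Vmn1r259, 2 missense changes and 1 frameshift, so variants in this gene were not particular to the WT hosts. Its MODIFIER variants numbered 23, 3 and 10 in B4, B5 and B6, against 43, 40 and 36 in B1, B2 and B3. In A1, A2, A3, A7, A8 and A9 they numbered 28, 34, 34, 31, 30 and 9. The lowest values were thus in A9, B5 and B6, the tumours that were also lowest in the chromosome 7 stretch above. The share of all genes without overlap between the hosts in MODIFIER variants was not computed.

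The 6 gel tumours had a mean of 43.7 ± 10.2 and the 6 host tumours 48.8 ± 13.1 protein-altering Vmn1r variants (SD, n = 6 each), a difference of -5.17. It was -1.03 without A9, -1.73 without B1 and -9.53 without B5. Per 10000 protein-altering variants the direction turned, with 42.5 ± 8.89 in gel and 37.9 ± 5.73 in host tumours (SD, n = 6 each). The recurrent genes had like sums, 36.3 ± 10.0 and 35.2 ± 10.2, and the sporadic genes 7.33 ± 2.07 and 13.7 ± 5.16 (SD, n = 6 each). The sporadic sums were 4 to 10 in gel and 9 to 23 in host tumours, and these ranges overlapped. The gel, the recipient mice and possibly the sequencing run set gel and host tumours apart, and their parts in a difference cannot be told apart.

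No Vmn1r gene passed the test between the experiments. By edgeR's quasi-likelihood test 0.0% of 6830 genes and 0 of 26 members were called, with 740 genes and 2 members at an unadjusted p below 0.05; DESeq2 called 4 genes, none of them a Vmn1r gene. The 2 members were Vmn1r224, altered in A2, A3 and A9, and Vmn1r111, altered in A3, A7 and A8 (edgeR adjusted p = 0.438 for both). Neither had a protein-altering variant in a host tumour. Both had MODIFIER variants there, Vmn1r224 between 10 and 48 in each host tumour and Vmn1r111 2, 2 and 5 in B1, B2 and B3. No member had counts that did not overlap, where 0.0% of all genes were higher and 0.205% lower in every gel tumour. The difference between the contrasts of the experiments was tested as an interaction, and edgeR called 0.0% of 6830 genes and 0 of 26 members, with 135 genes and 0 members at an unadjusted p below 0.05; DESeq2 called 0 genes.

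The genes that carry the receptor signal inside vomeronasal neurons, or build and wire these neurons, were examined as a list of 24. Of these 14 had a protein-altering variant in some tumour, 10 had none, and 3 were altered in all 12 tumours. Over all protein-coding genes 44.5% had none and 7.47% were altered in all 12, so the list was not set apart by these few genes. Trpc2, the cation channel that opens after receptor activation, had 3 variants in A9, B1, B2 and B6, 2 in A3 and B3 and 1 in the others. Plcb2, a phospholipase C that acts downstream of G proteins, had 3 to 9 in every tumour and was highest in B2. Adcy2, an adenylyl cyclase, had 3 to 7 and was also highest in B2.

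Gnb1, a G protein beta subunit, had 1 variant in 8 tumours and 0 in A1, A9, B3 and B5. Gnai2, the G protein alpha subunit to which these receptors couple, had 1 variant in A9 alone. Ano1, a calcium-activated chloride channel, had 2, 2 and 1 in the soft tumours and 0 in each stiff tumour (edgeR adjusted p = 1). In B1 to B6 it had 4, 1, 3, 3, 0 and 2. Ano1 was the only gene of the 6 listed ones tested between stiff and soft whose counts did not overlap. Of all genes tested there, 2.69% likewise lay lower in every stiff tumour. Robo2, an axon guidance receptor, was altered in 6 tumours with up to 5 variants in A1. The other 7 altered genes, Itpr3, Rtp2, Meis2, Ebf1, Ldb1, Nrp2 and Kirrel3, had at most 2 variants in a tumour and were altered in 1 to 4 tumours. Of the 24 genes, 6 had a summed count high enough to be tested between stiff and soft, 8 between KO and WT hosts and 10 over all 12 tumours, and none of those tested passed edgeR's adjusted p of 0.05.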

How the data were processed

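Exomes of 12 mammary tumours were sequenced; 2 tails are not analysed here. SureSelectXT capture was followed by 150 bp paired reads on NovaSeq instruments, at over 50x and 6 Gb for each sample, per the labels' protocols. The submitters' processing notes name BWA 2.2.1, SAMtools 1.19.2, GATK and the GRCm39 build. Caller settings, filters and any use of the tails: not given in the sources used here. Deposited tables give, for each transcript, the count of variants as whole numbers, from snpEff per the file headers.

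A gene's value was the maximum over its protein-coding transcripts in each impact class, and 0 where unlisted. Groups were tested with edgeR 4.0.16 (equal library sizes, summed count of at least 3, Benjamini-Hochberg over all genes, threshold 0.05), and DESeq2 1.42.0 served as the alternative. The approximate SE of a log2 ratio is its size divided by the root of edgeR's F. The fit was tried on simulated data with large changes in genes of higher counts. That says little about smaller changes or about genes with low counts, such as most members tested. Clusters are runs of RefSeq Vmn1r genes with at most 10 other protein-coding genes between them; all 191 members matched RefSeq by symbol. Nearest relatives come from global alignments (Biopython 1.88) of the windows, in place of proteins, which were not used here.

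Members and lists were chosen with earlier results of these data known. Named were the 12 members with the highest mean, those past the threshold or without overlap, those at 0 in A9 and B5 only, those with a frameshift or stop gained in all 12 tumours, the highest and lowest of each subfamily, 3 receptors with known ligands and the altered pathway genes. Other members and the chromosome 7 stretch were chosen after their values were seen.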

Additional observations from a re-analysis of the deposited data

Results flagged for a closer look

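Of 38 groups of 6 tumours examined for a tumour far from the others (7 sums and 12 genes in the gel and in the host tumours), 17 held one. Chance gives about 1 in 20 for continuous values, but these are mostly small tied counts, in which a tumour that differs by 1 variant stands out, so that share does not apply and the 17 are a description. A9 was far below the other gel tumours in the summed protein-altering count (23), in the MODERATE-impact count (14) and in the sum of the recurrent genes (16). It was also far below them in Vmn1r3 (0), Vmn1r2 (0), Vmn1r69 (0), Vmn1r193 (0), Vmn1r245 (0), Vmn1r113 (0) and Vmn1r174 (5). B5 was far below the other host tumours in the sum of the recurrent genes (15), in Vmn1r3 (0), Vmn1r193 (0) and Vmn1r174 (5). A3 was above the other gel tumours in Vmn1r259 (3, against 0). A7 in Vmn1r197 (4) and B1 in Vmn1r184 (3) were set apart by 1 variant from an otherwise constant count. Vmn1r genes share clusters and the same tumours, so these are not separate events.

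Vmn1r pseudogenes, which no comparison used, were also listed, 37 to 62 of them in a tumour. Their MODIFIER variants summed to 160 in B5 and 165 in A9, the lowest values, and to 366 in B1, the highest.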

How the results depend on the processing

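No alternative called a Vmn1r gene in any of the 4 comparisons. The alternatives were the median over transcripts, LOW-impact variants included, MODERATE-impact variants only, other library sizes, count filters of 1 and 10, DESeq2, and leaving out single tumours or A9 and B5 together. Without A9 and B5, 9 members were altered in all tumours, against 5. Members without overlap between stiff and soft numbered 1 of 15 without A9 and B5 (Vmn1r3; 7.29% of all genes) and 1 of 16 per 10000 protein-altering variants (Vmn1r197; 8.53%), and 0 to 1 with single tumours left out, against 0 of 16 (3.87%). Between KO and WT hosts they numbered 1 of 18 (4.99% of all genes), 3 of 25 with LOW-impact variants included (5.56%) and 1 to 4 with single tumours left out, 4 of 16 without B4 (9.13%), 2 of 17 without B6 (12.6%) and 3 of 17 without B3 (11.9%). Per 10000 protein-altering variants, the summed count differed by -3.25 between KO and WT hosts and by 4.57 between gel and host tumours, against -16.3 and -5.17 unscaled; the cause was not tested. With single tumours left out, the differences ranged from -14.7 to -2.17 (stiff minus soft), -21.0 to -9.5 (KO minus WT) and -9.53 to -1.03 (gel minus host). Of 48 recomputed means of 12 genes, 38 moved by no more than the SD over tumours. Among the 10 that moved more, Vmn1r184 was at 1.25 by the median over transcripts and at 0 with MODERATE-impact variants only, against 2.25. Stiff and soft tumours share no replicate number, nor do KO and WT hosts. Soft and WT host tumours share the numbers 1 to 3, but the same-numbered tumours did not deviate together (r of -0.0119 to 0.033 across 6830 genes). With the replicate block, added after seeing the data, edgeR called 0 genes and 0 members between gel and host, with 74 genes and 0 members at an unadjusted p below 0.05. Read depth is not in the tables, so a count of 0 may be a site without coverage.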
